A study of Solanum tuberosum with 72 samples.

Results

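The 51 array spots described here were selected on measured values as negative in potato leaf and root after 27 h of cold and not clearly negative under salt. Each spot's change, d, is its mean deposited log2 ratio on the stress arrays minus that on the controls of its tissue and time. A spot was a member where d was at or below -0.75 in leaf cold 27 h and in root cold 27 h, and above -0.5 in leaf salt 27 h and in root salt 3 h. These limits kept 51 of the 13585 spots that had at least 2 values in all 24 groups, out of 32448 spots in the deposited table. The rule set no limit on heat, so the working name of the list, cold-only, says more than the rule does. In heat, 27 of the 51 spots were positive past the threshold of the test in at least 1 of 6 comparisons, as were 12.6% of the 13585 spots, and 12 were negative in at least 1, as were 11.8%. All 12 passed the threshold in root heat at 27 h. None of them did when those heat and control arrays were fitted alone, which leaves d as it was. The spots are called by their rule, cold-negative within the salt limits.

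The study measured responses of Solanum tuberosum seedlings, variety Gilroy, to 3 stresses in 2 tissues and at 3 times on 72 spotted arrays with 2 colours. Seedlings grown hydroponically for 5 weeks at 25 °C, with 16 h of light and 8 h of dark, had their medium exchanged for medium at 4 °C (cold), for medium at 35 °C (heat), for medium with salt, or for fresh medium with no stress (control). Leaf here means the aerial tissue, and leaf and root were taken after 3, 9 and 27 h, with 3 arrays for each tissue, condition and time, each from a pool of 6 plants and from a separate run of the experiment. The labels give the salt as 150 mM NaCl in the treatment field and as 100 mM in the description, so the dose is not settled.

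Every sample was labelled with Cy3 and set against a Cy5-labelled pool of unstressed plants from 6 boxes of the same tissue, time and run, so stress and control arrays of a run share a reference pool. The labels do not say which channel is the numerator of the deposited ratio. A positive d is therefore a higher deposited ratio under stress than in the control, a negative d a lower one, and neither is stated to be more or less RNA. A change in RNA per cell and a change in the share of cells that hold it cannot be told apart in such pools, and the identity of leaf and root could not be checked on markers, since each ratio is against a pool of the same tissue.

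As background, plants sense cold through changes in membranes and calcium entry, and transcription factors of the CBF/DREB family then reset large groups of genes. Heat acts mainly through heat-shock factors, which switch on chaperones. Salt is both an osmotic and an ionic stress, and many cold-responsive genes also answer to water deficit and to abscisic acid, the hormone of drought, so genes that answer to cold and not to salt are a common object of such designs.

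The table holds 1284358 values, with 15580 to 20545 measured spots on an array and array medians of 0 to 0.01. No intensities were given, so the number of arrays limits the precision. Each comparison was tested with limma on the 36 arrays of a tissue, over 15601 spots in leaf and 14866 in root, with Benjamini-Hochberg adjusted p under 0.05 counted as called. All comparisons of 1 tissue and time share their 3 control arrays, so agreement between stresses is not independent. The fit was also tried on simulated data of the same size, with changes in cold at 9 h alone and in few spots. There 54% of spots given a log2 change of 0.75 were called in leaf and 58% in root. Of those given a change of 1, 74% and 82% were called. The adjusted p depends on how many spots change, so these shares need not hold for the real comparisons.

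Most clones on the array were printed as a pair of spots. The positions of the pairs were inferred from the values, and 902 of the 905 annotated sequences with 2 spots lay at those positions. Among the 51 members 19 pairs had both spots in the list and 13 spots stood without their partner, so the list held 32 printed units and pairs are not independent evidence. The partner of a single member had too few values in 2 cases, missed a cold limit alone in 6, a salt limit alone in 3 and both kinds in 2. Within the 19 pairs the partners' values correlated with r of 0.934 to 0.997 and a median of 0.985 across arrays, as a description of the printing.

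Only 8 of the 51 spots had a gene in the annotation of the array, a table of 1810 spots. They stood for 3 genes, LOC102577566 with 4 spots, LOC102582373 with 2 and LOC102601295 with 2. The tables used here give these genes no function, so no role is stated. The other 43 spots are named by their number, and 36 of the 51 had a value on all 72 arrays while the others had at least 68.

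The values at 27 h of cold chose the members and are given as a description. In leaf cold 27 h d ran from -1.57 to -0.75 with a median of -0.89, and in root cold 27 h from -2.71 to -0.76 with a median of -1.20. Past the threshold of the test were 43 spots in leaf, where 10.7% of all spots were called negative, and 42 in root, where 19.2% were. In leaf the spots just inside the limit were 158899 and 141947 at -0.75, and the nearest outside were 152851 at -0.75 and 151436 at -0.74. In root spots 137497 at -0.76 and 138341 at -0.84 lay inside, and 132747 at -0.74 and 151236 at -0.73 outside. At the salt limits spots 159170 and 145973 were inside at -0.48 in leaf, against 146817 at -0.50 and 157465 at -0.51 outside, and spots 141193 and 144261 inside at -0.49 in root, against 161697 at -0.51 and 142892 at -0.52 outside.

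Of the 8 spots named for the most negative mean of d over both tissues at 27 h, 6 had the larger change in root, and 151722 and 147544 in leaf. Spot 141193 read -3.06, -2.47 and -1.60 on the root cold arrays and -0.01, 0.43 and 0.60 on the control arrays, and its leaf value of -1.18 rests on 2 cold arrays. Its partner had -2.88 in root and missed both salt limits narrowly. Spot 131257 read -2.25, -2.25 and -1.89 in root cold and -0.30, 0.12 and 0.55 in the controls. Its d was -2.25 in root and -0.77 in leaf, so it was near the limit in leaf and among the lowest in root.

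Spot 154895 read -1.84, -2.12 and -1.84 on root cold arrays, against -0.03, 0.39 and 0.21 on control arrays, and its d was -2.12 in root and -0.88 in leaf. Spot 163057 had -2.07 in root and -0.83 in leaf, and spot 159170 had -2.00 and -0.89. Root cold arrays of 141193, 131257 and 154895 lay below all their root control arrays.

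Spots 151722 and 147544 had similar values in leaf and root at 27 h. Spot 151722 of LOC102577566 read -2.47, -1.89 and -1.12 on leaf cold arrays, against -0.18, -0.45 and -0.14 on control arrays, which gave d of -1.57, and its root value was -1.48. Spot 147544 had -1.36 in leaf and -1.30 in root, where it was not called (limma adjusted p = 0.123). Its leaf arrays overlapped, since cold replicate 3 at -0.23 lay above control replicate 1 at -0.34. Spot 148793 had -0.81 in leaf and -1.82 in root, and its cold and control arrays overlapped in both tissues. Its leaf value was not called (limma adjusted p = 0.359).

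**Figure D1:**
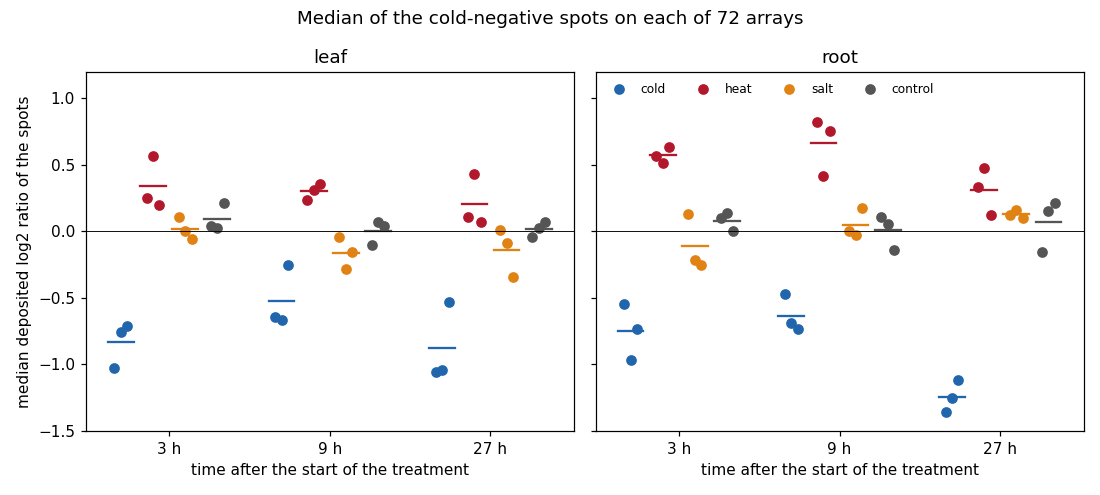
Median deposited log2 ratio of the 51 spots on each array, for leaf (left) and root (right) at 3, 9 and 27 h. Each point is 1 array, colours mark cold, heat, salt and control from left to right at each time, and bars are the means of 3 arrays. All cold arrays lie between -1.36 and -0.25, and all heat arrays between 0.07 and 0.82.

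The plot of medians by array shows the median of the list below the control medians on every cold array, also at the times that did not choose it, while 12 members in leaf cold at 9 h, 14 in root cold at 9 h and 5 in root cold at 3 h had d above 0. The median over the 51 spots was -1.03, -0.76 and -0.71 on the 3 leaf cold arrays at 3 h, against 0.04, 0.03 and 0.21 on the control arrays. At 9 h it was -0.64, -0.67 and -0.25 in leaf cold, against -0.10, 0.07 and 0.04. Replicate 3 had the least negative leaf cold median at 9 h and again at 27 h, where the medians were -1.06, -1.04 and -0.53.

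In root the cold medians were -0.55, -0.97 and -0.74 at 3 h, against 0.10, 0.14 and 0.00 on control arrays. At 9 h they were -0.47, -0.69 and -0.74, against 0.11, 0.06 and -0.14. Cold and control arrays did not overlap in these medians in either tissue at either time.

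Leaf cold at 3 h shares no arrays with the comparisons that chose the spots, and there 41 of the 51 were called negative and none positive, while 6.85% of all spots were called negative. All 51 had d below 0, from -2.59 to -0.27 with a median of -1.0, against a median of 0.00 over all 13585 spots. The count was 26 without leaf control 3 h replicate 3. The deepest were spots of unknown identity. Spot 149403 read -2.56, -2.94 and -2.25 on cold arrays and 0.03, -0.22 and 0.21 on control arrays, a change of -2.59 (SE 0.49, limma adjusted p = 0.000514), and its partner 147544 had the same value. Spot 139797 read -2.32, -2.84 and -1.94 in cold and 0.00, -0.29 and 0.49 in the controls, which gave -2.43 (SE 0.45, limma adjusted p = 0.000432), and partner 141656 gave -2.36. In both, every cold array lay over 1 log2 unit below every control array.

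Spot 148793 was more variable. It read -1.43, -3.06 and -1.56 on leaf cold arrays at 3 h and -0.04 and 0.75 on the 2 control arrays that measured it, a change of -2.37 (SE 0.65, limma adjusted p = 0.0121). This call was lost without leaf cold 3 h replicate 2 (limma adjusted p = 0.0704) and without leaf control 3 h replicate 3 (0.134). Partner 147949 gave -2.06.

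At 9 h in leaf fewer members were negative. There 23 of 51 were called negative, none positive, and 10.7% of all spots were called negative, with a median d of -0.59 and 12 members above 0. The count was 13 without leaf cold 9 h replicate 2 and 5 with quantile scaling between arrays. Fitted on the compared groups alone, 20 members were negative and 3 positive, and with the replicate block, which pairs the arrays of a run, 25 were negative and 1 positive. Spot 141193 read -1.56, -1.79 and -0.49 on cold arrays and -0.04, 0.10 and -0.32 on control arrays, a change of -1.19 (SE 0.36, limma adjusted p = 0.0172). Spot 141503 of LOC102601295 read -1.40, -1.60 and -0.56 in cold and -0.43, -0.10 and 0.25 in the controls, which gave -1.09 (SE 0.26, limma adjusted p = 0.00309). Spot 158326 read -1.03, -1.47 and -0.49, against -0.22, 0.31 and 0.06, a change of -1.05 (SE 0.27, limma adjusted p = 0.00462). In each of the 3 spots cold replicate 3 was the nearest to the controls, and cold and control arrays did not overlap. With quantile scaling the calls of 141193 and 141503 were lost, with values of -0.80 and -0.69 (limma adjusted p = 0.109 and 0.0539). The call of 141193 was also lost without leaf cold 9 h replicate 1 (0.0716) or 2 (0.114) or leaf control 9 h replicate 2 (0.0655), and that of 158326 without leaf cold 9 h replicate 2 (0.0537).

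Root cold at 3 h shares its control arrays with root salt 3 h, which the rule used, so the choice of members bears on these values. There 27 spots were called negative, against 6.72% of all spots, and 2 positive, against 5.79%. The median d was -0.73 and the range -3.34 to 0.68. The deposited values come from ratios with 2 decimals, so the lowest ones lie on coarse steps. Spot 141656 read -2.18, -3.18 and -2.94 on root cold arrays and 0.57, 0.41 and 0.19 on control arrays, a change of -3.16 (SE 0.60, limma adjusted p = 0.000698). Spot 147544 read -1.56, -3.32 and -3.32, against 0.50, 0.31 and -0.14, a change of -2.96 (SE 0.66, limma adjusted p = 0.00286). Spot 148793 had -2.94 and -3.84 on the 2 cold arrays that measured it, against 0.44, -0.17 and -0.43, a change of -3.34 (SE 0.76, limma adjusted p = 0.0036). Its partner, measured on all 3 cold arrays, gave -2.41. The call of 148793 was lost with quantile scaling (-2.29, limma adjusted p = 0.0555) and without root cold 3 h replicate 3 (0.0651).

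The 2 positive calls in root cold at 3 h were the pair of LOC102582373. Spot 131356 read 1.0, 1.12 and 1.25 on cold arrays and 0.98, 0.29 and 0.07 on control arrays, a change of 0.68 (SE 0.23, limma adjusted p = 0.0459), and spot 132200 gave 0.68 too. All cold arrays lay above all control arrays, by 0.02 at the nearest. The call of 131356 was lost in the fit of both groups alone (limma adjusted p = 0.0864), with quantile scaling (0.388), and without any 1 of the 3 cold arrays (0.0579 to 0.143) or of control replicates 2 (0.156) and 3 (0.249).

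Root cold at 9 h used no array of the rule. There 27 members were called negative and none positive, while 11.9% of all spots were called negative, and the median d was -0.75. Spot 141193 read -1.69, -1.79 and -1.74 on cold arrays and 0.53, 0.37 and -0.03 on control arrays, a change of -2.02 (SE 0.41, limma adjusted p = 0.000355). Spot 144261 read -1.56, -1.84 and -1.60, against 0.21, -0.25 and -0.30, a change of -1.55 (SE 0.17, limma adjusted p = 3.89e-08). Spot 143084 read -0.56, -1.64 and -1.47, against 0.50, 0.37 and 0.07, a change of -1.53 (SE 0.24, limma adjusted p = 1.61e-05). In all 3 the cold arrays lay below the control arrays, with cold replicate 1 of 143084 standing nearest to them. Their partners gave -1.96, -1.54 and -1.23.

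Over the 4 cold comparisons at 3 and 9 h, 9 members were called negative in all 4, 13 in 3, 17 in 2, 9 in 1 and 3 in none. Of the 13585 spots tested in both tissues 0.633% were called in all 4, 2.72% in 3, 5.37% in 2, 15% in 1 and 76.3% in none. In leaf 17 members were called at both 3 and 9 h, against 3.75% of all spots, and in root 16 were, against 2.21%. At 3 h 26 were called in both tissues, against 1.69% of all spots, and at 9 h 19 were, against 4.81%. The rule asked for negative values in both tissues at 27 h.

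In leaf 7 spots were called positive for the difference between cold at 9 h and cold at 3 h, each against its own controls, where 1.41% of all spots were. None was called negative for it. They are the pairs 139797 and 141656, 147544 and 149403, and 158411 and 160270, with spot 160909. Their d was -2.59 to -2.21 in leaf cold at 3 h, 0.29 to 1.04 at 9 h and -1.36 to -0.85 at 27 h, a value that the rule bounds. None of the 7 was called in cold at 9 h in either tissue. Pairs 137497 and 138341, and 147949 and 148793, also had d below 0 at 3 h and above 0 at 9 h in leaf cold. Their values at 9 h were 0.48 to 0.96, and they were not called for the difference. In root the same 7 had d of -3.16 to -2.47 at 3 h, -0.05 to 0.56 at 9 h and -1.56 to -1.12 at 27 h. At 27 h 3 of the 7 were called negative in leaf and 2 in root.

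Spot 147544 shows the course. It read -2.47, -2.84 and -2.25 on leaf cold arrays at 3 h, 0.64, 0.61 and 0.72 at 9 h and -1.56, -2.00 and -0.23 at 27 h. The leaf control arrays read 0.12, -0.17 and 0.25 at 3 h, -0.20, -0.15 and 0.47 at 9 h and -0.34, 0.59 and 0.04 at 27 h. The 3 cold arrays at 9 h thus lay above the 3 controls, and those at 3 h below them. The difference between 9 and 3 h was 3.21 (SE 0.69, limma adjusted p = 0.00757).

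Spot 158411 had the smallest adjusted p for this difference in leaf. It read 0.61, 1.05 and 0.70 on cold arrays at 9 h and -2.47, -2.40 and -1.84 at 3 h, and the difference between times was 2.98 (SE 0.47, limma adjusted p = 0.00051). With quantile scaling 2 members were called for this difference, and 11 when only the compared groups were fitted.

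In root 8 spots were called positive for cold at 9 h against cold at 3 h, where 8.47% of all spots were, and 2 negative, where 4.59% were. The positive calls are 5 printed units and the negative ones 1. This difference holds the root control arrays at 3 h, which the rule used through root salt 3 h. The 8 were the same 7 spots, with differences of 2.79 to 3.72, and spot 131257 at 1.28 (SE 0.41, limma adjusted p = 0.0354), which was still negative at 9 h with d of -0.91. The 2 negative ones were the pair 143417 and 144261, at -1.15 and -1.02, whose d in root cold was -0.39 and -0.53 at 3 h and -1.54 and -1.55 at 9 h. Restricting the test to spots with a value on every root array left 39 members, of which 4 were called. Root heat 3 h replicate 2, which measured 43 of the 51 spots, had no value for 147544.

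**Figure D2:**
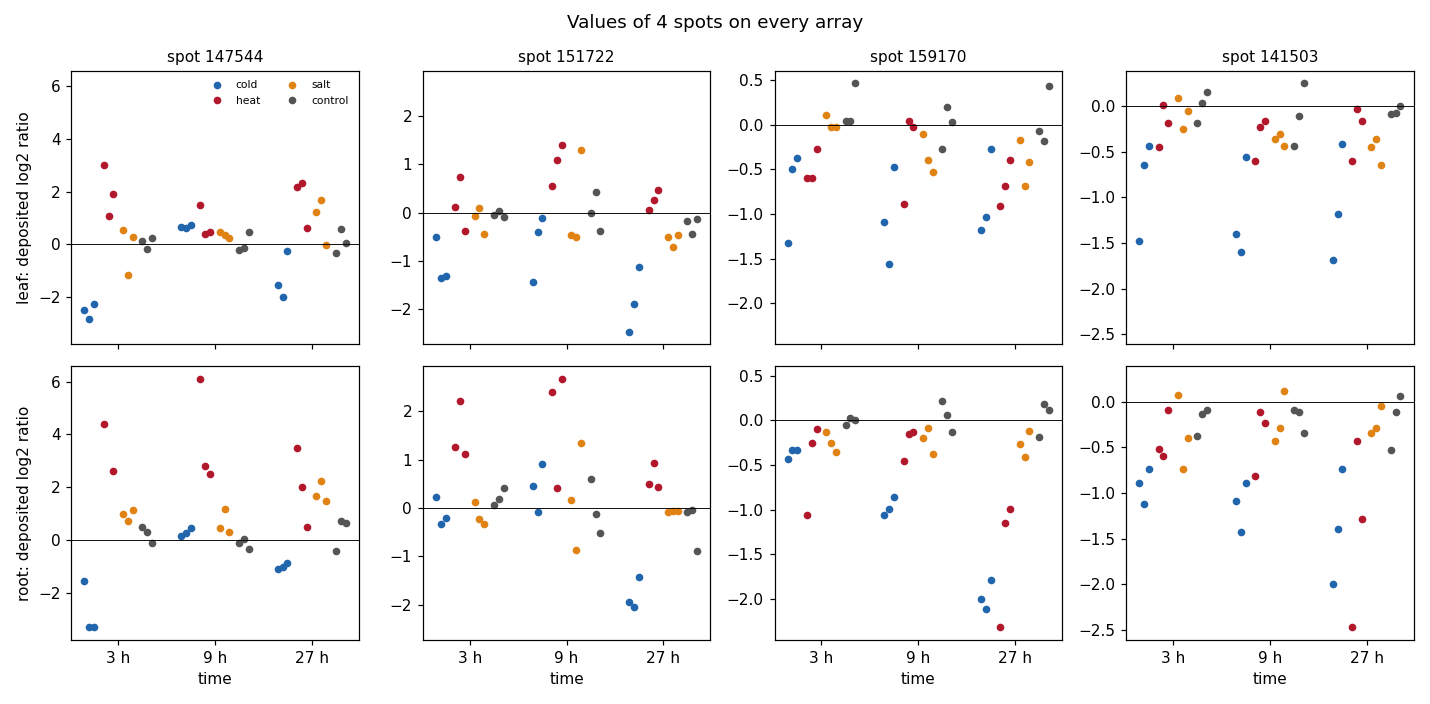
Deposited log2 ratio of 4 spots on every array that measured them, leaf above and root below, by time, with cold, heat, salt and control from left to right at each time. Points are single arrays. Spot 147544 is low in cold at 3 and 27 h and high in heat, 151722 of LOC102577566 is low in cold at 27 h, and 159170 and 141503 are low in root in cold and in heat at 27 h.

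The tissues were compared directly for cold at 9 h. For d in leaf minus d in root 1 member was called positive, where 4.09% of the 13585 spots tested in both tissues were, and 1 negative, where 4.95% were. Spot 144261 read -1.32, -1.25 and -0.76 on leaf cold arrays, against -0.62, -0.07 and -0.34 on leaf control arrays, and -1.56, -1.84 and -1.60 on root cold arrays. The difference of leaf minus root was 0.78 (SE 0.26, limma adjusted p = 0.0462), from d of -0.77 in leaf and -1.55 in root, and its partner gave 0.72 (0.133). Spot 132200 of LOC102582373 read -1.06, -0.74 and -0.92 on leaf cold arrays, against -0.09, 0.03 and -0.32 on leaf control arrays, and 0.07, 0.47 and 0.07 on root cold arrays, against 0.21, 0.00 and 0.18 on root control arrays. It was low on leaf cold arrays and not on root cold arrays, with a difference of -0.85 (SE 0.27, limma adjusted p = 0.0389), and its partner gave -0.83 (0.066). Leaving out single arrays gave 0 to 6 called members, so these 2 calls rest on the arrays included.

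Heat split the list. Over the 6 heat comparisons 27 members were called positive in at least 1, against 12.6% of the 13585 spots. Called negative in at least 1 were 12 members, against 11.8%. The other 12 had no call, against 75.6%. The split follows from the heat values themselves and is used here to order the description. It kept printed pairs together, with 1 exception, the pair 143417 and 144261, of which only the first was called.

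The positive calls lay mostly in root at 3 and 9 h. At 9 h, with no array of the rule, 24 were called positive, where 3.67% of all spots were, and none negative, where 2.07% were. The median of d was 0.71 and the highest 4.47. At 3 h, where the control arrays are those of root salt 3 h, 19 were positive and none negative, against 3.73% and 3.24% of all spots. At both times 17 were called positive, against 1.52% of spots, and at 3 h 4 were in leaf and root, against 0.265%. The 9 h count was 10 without root heat 9 h replicate 1. Among the 39 members with a value on every root array 15 were called at 9 h and 9 at 3 h.

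The largest values came with a wide spread between runs. Spot 147949 read 5.91 and 4.33 on the 2 root heat arrays at 3 h that measured it, against 0.40, -0.29 and -0.64 on control arrays, a change of 5.29 (SE 0.76, limma adjusted p = 0.00014). Spot 139797 read 5.61 and 2.85 on 2 root heat arrays at 9 h, against -0.17, -0.09 and -0.45, a change of 4.47 (SE 0.65, limma adjusted p = 0.000228). Spot 147544 read 6.11, 2.78 and 2.52, against -0.14, 0.04 and -0.36, a change of 3.95 (SE 0.66, limma adjusted p = 0.000907). Heat replicate 1 was the highest array in each, and all heat arrays lay above all control arrays.

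The 7 spots that differed between 9 and 3 h of leaf cold, in 4 printed units, were not called in cold at 9 h. All were called positive in root heat at 3 and 9 h, against 1.52% of all spots called at both times. Their d was 2.67 to 3.28 at 3 h and 2.88 to 4.47 at 9 h. At 3 h each of them lacked a value on a root heat array. In leaf heat none of the 7 was called, with d of 1.07 to 2.0 at 3 h.

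In leaf few members were called in heat, and few spots were called at all. At 3 h 4 members were positive and none negative, against 0.378% and 0.237% of all spots. At 9 h 2 were positive, where 0.135% of all spots were, and none negative, where 0.032% were. At 27 h, with the control arrays that also chose the list, 3 were positive and none negative, against 0.41% and 0.218%. The pair 147949 and 148793 had the largest leaf heat values. Spot 148793 read 5.63, 3.49 and 4.40 on leaf heat arrays at 3 h, against -0.04 and 0.75 on 2 control arrays, a change of 4.16 (SE 0.65, limma adjusted p = 0.00151). All 3 heat arrays lay far above both controls.

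These leaf counts move with single arrays. The 27 h count was 0 without leaf heat 27 h replicate 1 or leaf control 27 h replicate 1, 1 without leaf control 27 h replicate 3 and 8 without leaf heat 27 h replicate 3. The 9 h count was 0 without leaf control 9 h replicate 1, and 1 without any 1 of the 3 heat arrays. At 3 h it was 2 without leaf control 3 h replicate 2. With the replicate block 7 members were positive at 3 h and 4 at 9 h. With quantile scaling 12 members were called at 3 h, 11 of them positive, and 11 at 9 h and 7 at 27 h, all positive.

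At 27 h of heat in root 14 members were positive, where 9.19% of all spots were, and 12 were negative, where 10.1% were. The control arrays are those of root cold 27 h, which chose the list. The median of d was 0.44 over spots and 0.13 with 1 value per printed unit. With the first root control array left out it was 0.23, as it was when the second root heat array was, and the difference within replicate 3 alone was -0.28. The 12 negative members are the pairs 135358 and 136202, 139644 and 141503 (LOC102601295), 154051 and 154895, 158326 and 159170, and 161198 and 163057, with spots 141193 and 144718.

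Spot 141193 read -3.18, -0.94 and -0.60 on root heat arrays at 27 h, against -0.01, 0.43 and 0.60 on control arrays, a change of -1.91 (SE 0.41, limma adjusted p = 0.00158). Spot 159170 read -2.32, -1.15 and -1.0, against -0.18, 0.18 and 0.11, a change of -1.52 (SE 0.22, limma adjusted p = 3.2e-05). Spot 154895 read -1.69, -0.92 and -0.49, against -0.03, 0.39 and 0.21, a change of -1.22 (SE 0.21, limma adjusted p = 0.00016). Heat replicate 1 was the lowest array in all 3, and no heat array reached a control. These calls depend on the arrays in the fit. Fitted on heat and control arrays alone, 2 members were called positive and none negative, with limma adjusted p = 0.116, 0.0609 and 0.0703 for these 3 spots. Without root heat 27 h replicate 1, 4 members were positive and 6 negative, without root control 27 h replicate 2, 9 and 8, and without replicate 3 of the controls, 8 and 6.

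The groups split by heat calls had different medians in cold, as a description with no test. Heat and cold of 1 tissue and time share their control arrays, so the heat calls bear on the cold values given here. The cold values at 27 h also chose the members. The 27 heat-positive members had median d of -1.03, -0.09 and -1.19 in root cold at 3, 9 and 27 h, and the 12 heat-negative ones -0.72, -0.99 and -2.00. In leaf cold the medians were -1.08, -0.29 and -0.93 for the 27, and -0.88, -0.76 and -0.84 for the 12. In root cold at 9 h 8 of the 27 and all 12 of the heat-negative members were called negative, against 11.9% of all spots. The 27 were 16 printed units and the 12 were 7.

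**Figure D3:**
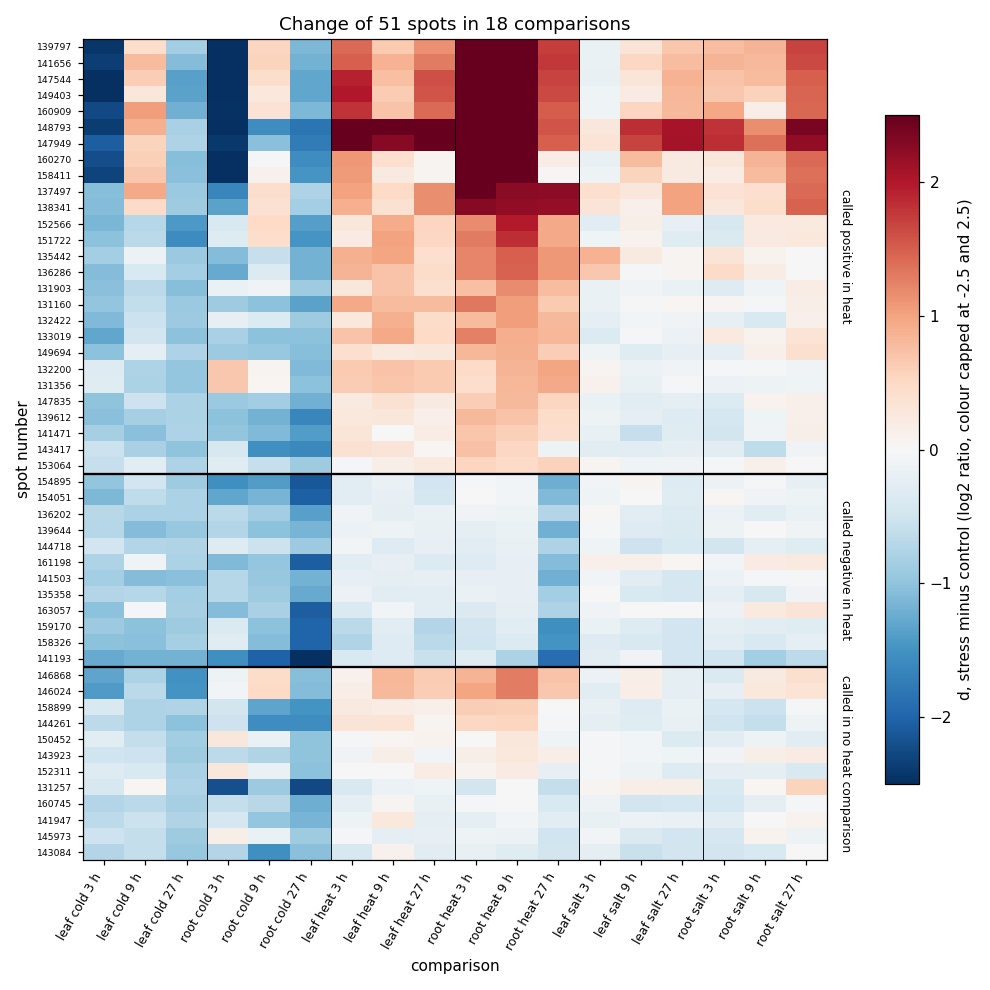
Change d (stress minus control, log2 ratio) of the 51 spots, 1 row a spot, in 18 comparisons, 1 column each, with colour capped at -2.5 and 2.5. Rows are grouped by their calls in heat and ordered by root heat at 9 h. The 27 upper rows are red in root heat at 3 and 9 h, the 12 middle rows are blue in root heat at 27 h, and values in root salt 27 h reach 2.37.

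Cold and heat were compared directly at 9 h, where the controls cancel. For cold minus heat 30 members were called negative in leaf, where 14.1% of all spots were, and 43 in root, where 18% were, with none positive in either. Spot 148793 had the widest gap among the named spots in root, -4.95 (SE 0.68, limma adjusted p = 2.18e-06), with d of -1.56 in cold and 3.40 in heat. Spot 131356 of LOC102582373 had -1.49 in leaf (SE 0.18, limma adjusted p = 3.78e-07), with d of -0.79 in cold and 0.70 in heat.

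Among the heat-negative members spot 159170 read -1.06, -1.0 and -0.86 on root cold arrays, -0.45, -0.15 and -0.14 on root heat arrays, -0.20, -0.09 and -0.38 on root salt arrays and 0.21, 0.06 and -0.14 on control arrays. Cold minus heat was -0.73 (SE 0.22, limma adjusted p = 0.0123). The cold arrays of this spot overlapped with no array of the other 3 conditions at this time.

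Under salt the rule bounded d from below in 2 comparisons, where it ran from -0.48 to 2.08 in leaf at 27 h and from -0.49 to 1.85 in root at 3 h. In leaf salt 27 h 1 member was called negative and 2 positive, while 6.46% and 5.59% of all spots were called with these signs. In root salt 3 h 1 was called negative and none positive, against 9.06% and 11.9%. Nothing is read from these counts.

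The other 4 salt comparisons gave 3 called members, against 11.1% of the 13585 spots called in at least 1 of them. In leaf at 3 h none was called, while 0.0513% of all spots were negative and 0.705% positive, and 3 members had an unadjusted limma p under 0.05. At 9 h 1 was negative and 1 positive, against 4.19% and 3.81% of all spots. In root 1 was negative and none positive at 9 h, against 1.37% and 2.96%, and none was called at 27 h, against 0.747% and 1.58%, where the controls were those of the rule and 13 members had an unadjusted limma p under 0.05. Fitting the root groups at 27 h alone called 11 members positive there and none negative. The 7 spots of the time difference had d of 1.38 to 1.69 in root salt 27 h and the highest member 2.37, none of them called. The lowest d in root salt at 9 and 27 h was that of spot 141193, -0.84 and -0.66, and neither was called. Medians of d were -0.11 and -0.07 in leaf at 3 and 9 h, and 0.04 and 0.12 in root at 9 and 27 h.

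Spot 148793 read 2.12, 1.26 and 0.95 on leaf salt arrays at 9 h, against -0.38, -0.89 and 0.07 on control arrays, a change of 1.84 (SE 0.58, limma adjusted p = 0.0484). Spot 144718 read -0.45, -0.62 and -0.74, against -0.22, 0.00 and -0.04, a change of -0.52 (SE 0.14, limma adjusted p = 0.0215). Spot 144261 read -0.81, -0.76 and -0.58 on root salt arrays at 9 h, against 0.21, -0.25 and -0.30, a change of -0.60 (SE 0.17, limma adjusted p = 0.0378). None of the 3 had overlapping arrays, and none of the 3 partners passed the threshold. The call of 148793 was lost without any 1 of its 6 arrays (limma adjusted p = 0.0584 to 0.175), that of 144718 without 4 of 6 (0.0775 to 0.0929), and that of 144261 without 5 of 6 (0.0505 to 0.252).

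The direct difference of cold minus salt at 9 h was called negative for 26 members in root, where 12.8% of all spots were, and for 3 in leaf, where 2.61% were, with none positive. In root spot 154895 had -1.35 (SE 0.21, limma adjusted p = 1.14e-05) and spot 144261 -0.95 (SE 0.17, limma adjusted p = 8.83e-05), although spot 144261 was also negative under salt. In leaf spot 132200 had -0.63 (SE 0.16, limma adjusted p = 0.0159). The leaf count was 12 without leaf cold 9 h replicate 3, 1 without leaf salt 9 h replicate 1, 7 with the replicate block and 0 with the groups fitted alone.

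Of the 383 spots at or below -0.75 in both cold comparisons at 27 h, 332 missed a salt limit. They were used as the comparison list, with no test between lists. At 3 h of cold the 51 spots had a median d of -1.0 in leaf and -0.73 in root, and the 332 had -0.68 and -0.67. Called negative there were 41 of the 51 and 189 of the 332 in leaf, against 6.85% of all spots. In root they were 27 of the 51 and 133 of the 332, against 6.72%. At 9 h of cold the 51 spots had a median d of -0.59 in leaf and -0.75 in root, and the 332 had -0.80 and -0.88. Called negative at 9 h were 23 of the 51 and 233 of the 332 in leaf, against 10.7% of all spots. In root they were 27 of the 51 and 222 of the 332, against 11.9%. In root heat at 3, 9 and 27 h the 51 had medians of 0.61, 0.71 and 0.44, and the 332 had -0.25, -0.17 and -0.93.

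By calls, 24 of the 51 and 3 of the 332 were positive in root heat at 9 h, against 3.67% of all spots. At 3 h 19 of the 51 and none of the 332 were, against 3.73%. Root heat and root cold at 3 h share their control arrays with root salt 3 h, which split the lists. The split therefore bears on the values of both lists there. In root heat at 27 h 12 of the 51 and 240 of the 332 were called negative, against 10.1% of all spots.

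**Figure D4:**
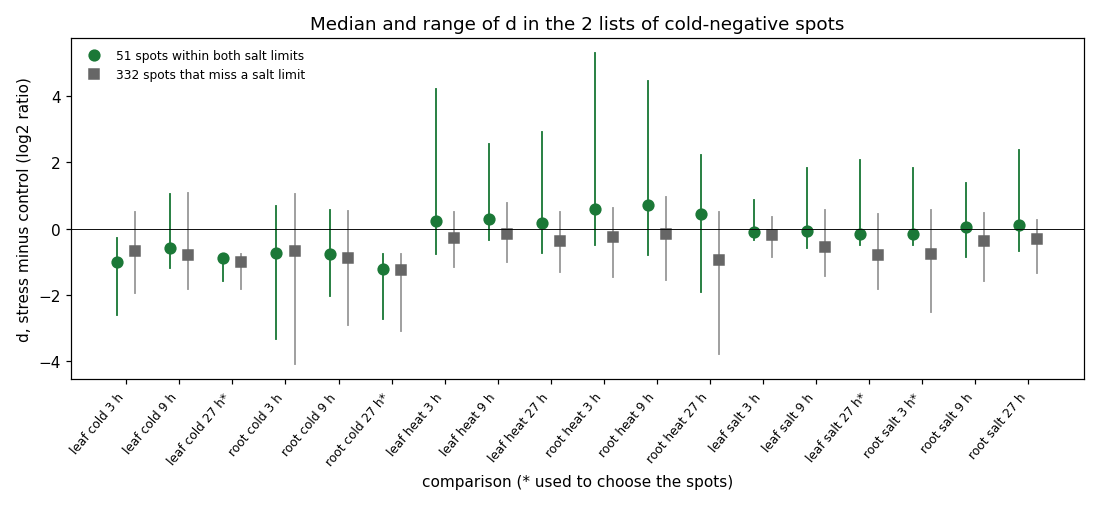
Median (symbol) and range (line) of d in 18 comparisons for the 51 spots within both salt limits (green circles, left of each pair) and the 332 spots with the same cold limits that miss a salt limit (grey squares). Asterisks mark the 4 comparisons that chose the spots. In root heat at 27 h the medians are 0.44 for the 51 and -0.93 for the 332, and in leaf cold at 3 h -1.0 and -0.68.

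LOC102577566 had 4 spots from 2 sequences. In leaf cold at 3 h spot 146024 had d of -1.42 (SE 0.38, limma adjusted p = 0.01), and its partner 146868 -1.33 (0.0112). Spot 151722 had -1.03, which was not called, and its partner 152566 -1.14, which was (limma adjusted p = 0.0335). In root cold at 27 h spots 146024 and 146868 had -1.08 and -1.07 and were not called (limma adjusted p = 0.085 and 0.0951). Spot 151722 read 2.40, 0.42 and 2.68 on root heat arrays at 9 h, against 0.60, -0.12 and -0.51 on control arrays, a change of 1.84 (SE 0.45, limma adjusted p = 0.0136), and its partner 152566 gave 1.99. Heat replicate 2 overlapped with the controls. Spots 146024 and 146868 had 1.27 and 1.28 there and were not called. At 9 h of root cold the 4 spots had d of 0.44 to 0.50, with no call. For cold minus heat in leaf at 9 h all 4 were called, at -1.66 to -1.48.

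LOC102582373 differed between its sequences. Spots 131356 and 132200 were negative in leaf cold at 9 h, with d of -0.79 (SE 0.18, limma adjusted p = 0.00216) and -0.78, and positive in root heat at 9 and 27 h. Spot 131356 read 1.12, 1.29 and 1.18 on root heat arrays at 27 h, against 0.33, 0.21 and 0.21 on control arrays, a change of 0.94 (SE 0.23, limma adjusted p = 0.00432), and no array overlapped. Another pair of the gene, 149008 and 149852, missed the root cold limit at -0.63 and -0.69 and had -1.01 and -0.97 in leaf cold at 27 h. A further pair, 137128 and 137972, had the opposite sign in cold, 0.59 and 0.70 in leaf and 0.53 and 0.35 in root at 27 h. The spots annotated to this gene differ in sign.

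LOC102601295 had a pair in the list. Spot 141503 had d of -0.85, -1.09 and -1.04 in leaf cold at 3, 9 and 27 h, and -0.71, -0.95 and -1.18 in root cold. It was called in all but root cold at 3 h, and its partner 139644 was also not called in leaf cold at 3 h, at -0.72 (limma adjusted p = 0.0722). In root heat at 27 h it read -2.47, -0.43 and -1.29, against -0.53, -0.12 and 0.06 on control arrays, a change of -1.20 (SE 0.32, limma adjusted p = 0.0104), and heat replicate 2 overlapped with the controls. The pair 142664 and 143508 of the same gene had values in root alone, and spot 142664 had -0.76, -0.88 and -1.23 in root cold at 3, 9 and 27 h.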

How the data were processed

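The authors deposited a single table of log2 ratios, 1 column for each of 72 arrays and 1 line for each spot. Per the submitters' processing notes they used limma, with no role and no version given; how background was corrected, how arrays were normalized and why cells are empty is not given in the sources used here, nor is the channel order of the ratio. Per the labels, RNA came from a column kit (description) or from a phenol or trizol method (protocol field). The values were used as deposited, with no column left out.

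Members were found by the rule given above, and the members and lists were chosen with earlier results of these data known. The pairs of spots were inferred 844 or 1859 rows apart in blocks of 2704 rows. Gene names came from the array's platform annotation, in which 1630 of 1810 spots have 1 gene and 180 several, and 30638 spots of the table are unnamed here; the 3 genes are in the RefSeq table used.

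The functions lmFit and eBayes of limma 3.58.1, run in R 4.3.3, were fitted on 12 groups of 3 arrays in each tissue, over spots with at least 2 values in every group, and on all 72 arrays for leaf minus root. The fit was tested on simulated data with 50 spots at each size of change, which gave 6 false calls in each tissue. Spots named in the text are the 8 with the most negative mean d at 27 h of cold, the 3 called with the most extreme d in each cold comparison at 3 and 9 h and of each sign in heat and in salt, positive calls in cold, calls between tissues, and the spots next to each limit, counting a pair once. Members of the annotated genes, those called between 9 and 3 h of cold and those called negative in heat are named as well, chosen after their values were seen.

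The replicate numbers pair the arrays, since per the labels a number marks a separate run whose arrays share a reference. The deviations of same-numbered stress and control arrays correlated with r of -0.04 to 0.50, median 0.20, over 0.1 in 45 of 54 pairs. Of 2556 pairs of arrays 1 had r below -0.3 (-0.36). Alternatives were the replicate block, the compared groups alone, quantile scaling, values on every array, 1 value per printed unit and each array left out in turn.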

Additional observations from a re-analysis of the deposited data

Results flagged for a closer look

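Tests of a difference between times or tissues picked out the following. In leaf cold 7 members differed between 9 and 3 h, all positive, where 1.41% of all spots were called positive. In root cold 10 members did, 8 positive and 2 negative, where 8.47% and 4.59% of all spots were. The root test holds the root control arrays at 3 h, which the rule used. Between leaf and root in cold at 9 h 2 members differed, spot 144261 with a difference of 0.78 and spot 132200 of LOC102582373 with -0.85. Of all spots tested in both tissues 4.09% were called positive there and 4.95% negative. The call of 144261 was lost when only the compared groups were fitted (limma adjusted p = 0.11) and without 7 single arrays (0.0502 to 0.179), and that of 132200 with quantile scaling (-0.43, limma adjusted p = 0.66) and without 8 single arrays (0.0535 to 0.126). No group held more than 3 arrays, so no single array was tested as an outlier.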

How the results depend on the processing

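No named value changed sign. With the replicate block, the count of called members was 7 in leaf heat 3 h, 4 in leaf heat 9 h, 1 in leaf salt 3 h, 1 in root salt 27 h and 7 in leaf cold minus salt, and the other 16 counts stayed within 1.5 times. With the compared groups alone it was 0 in leaf heat 27 h, 2 in root heat 27 h, 4 in root salt 9 h, 11 in root salt 27 h, 0 in leaf cold minus salt, 11 in leaf cold 9 h minus 3 h and 1 in leaf minus root. With quantile scaling it was 5 in leaf cold 9 h, 12, 11 and 7 in leaf heat 3, 9 and 27 h, 1 in leaf salt 9 h, 3 and 5 in root salt 9 and 27 h, 0 in leaf cold minus salt and 2 in leaf cold 9 h minus 3 h. With values on every array it was 1 in leaf salt 9 h, 9 and 15 in root heat 3 and 9 h and 4 in root cold 9 h minus 3 h, where fewer members were tested. Leaving out single arrays gave 26 to 39 in leaf cold 3 h, 13 to 24 in leaf cold 9 h, 2 to 6, 0 to 2 and 0 to 8 in leaf heat 3, 9 and 27 h, 0 to 1 and 0 to 3 in leaf salt 3 and 9 h, 10 to 23 and 10 to 33 in root heat 9 and 27 h, 0 to 1 in root salt 9 h and in root salt 27 h, 1 to 12 in leaf cold minus salt and 0 to 6 in leaf minus root. The cause of these shifts was not tested, apart from the smaller number of members or arrays. Of the medians, root heat 3 and 9 h were 0.75 and 0.94 and leaf heat 9 h 0.35 with quantile scaling, and leaf heat 9 h 0.23 with 1 value per printed unit. Leaving out single arrays gave medians of -1.04 to -0.75 in leaf cold 3 h and 0.19 to 0.33 in leaf heat 9 h. In root they were 0.48 to 0.71 in heat 3 h and -0.03 to 0.17 in salt 27 h. Of the named spots, 144718 lost its leaf salt call with the groups alone (limma adjusted p = 0.0551) and with quantile scaling (0.0808), and 144261 its root salt call with the groups alone (0.0747). Counts near the threshold are limited by 3 arrays a group and by a missing signal level, so a spot that was not called is not shown to be unchanged.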
